A study of Mus musculus with 8 samples.

Results

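The 9 genes described here encode transcription factors that direct helper T cells into lineages or act in several of them: Bcl6, Tbx21, Gata3, Rora, Maf, Bhlhe40, Irf4, Prdm1 and Id2. They were taken as every probe set that the array annotation gives to these genes alone, which gave 15 probe sets for the 9 genes, of 12393 genes on the array with a named probe set. RNA came from lymph node cells of B10.BR mice, an inbred strain, made into single-cell suspensions, sorted by flow cytometry and hybridised to Affymetrix arrays. The groups were naive mice (3 arrays), mice 7 days after immunization (3 arrays) and mice 28 days after immunization (2 arrays). The labels give neither the immunogen nor the population sorted, nor the age of the mice, and do not say that replicates came from separate animals, so p-values measure only the spread between these arrays, which may be technical.

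A naive CD4 T cell that meets antigen is known to take up a lineage under factors that in part exclude each other. Bcl6 directs follicular helper T cells, which help B cells in germinal centres, and is opposed by Prdm1, which encodes Blimp-1. Tbx21 encodes T-bet, the factor of Th1 cells, Gata3 directs Th2 cells, and Rora acts in Th17 cells. Maf drives Il21 and Il4, Bhlhe40 sets cytokine output, Irf4 scales with the strength of the antigen receptor signal, and Id2 blocks E proteins. Several of the 9 are also known from other cells, such as Bcl6 in germinal centre B cells and Prdm1 and Irf4 in plasma cells.

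At day 7, Bhlhe40, Bcl6 and Rora rose against naive, 12.6-fold, 10.2-fold and 7.07-fold each by 1 probe set. Of 8 fits that each left out 1 array, 6 kept the call of Bhlhe40, 1 that of Bcl6 and 3 that of Rora. The other tested probe set of Rora was 2.42-fold higher and did not pass (limma adjusted p = 0.166), and the other of Bcl6 was under the filter, at 1.09-fold. Tbx21, Gata3, Irf4, Prdm1 and both tested probe sets of Id2 lay higher at day 7 by log2 differences of 0.90 to 2.28 and did not pass the test. As the mean over its 2 tested probe sets, Id2 passed (1.87 ± 0.33, limma adjusted p = 0.0356 over all genes). That call was lost without any 1 array other than naive replicate 1. At day 28, 0 of the 10 tested probe sets passed against naive in limma, and 2 had an unadjusted p under 0.05. Between day 7 and day 28, Bhlhe40 fell 5.82-fold, and Bcl6, at a log2 difference of -2.83 (limma adjusted p = 0.0648), did not pass.

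The deposited values are linear ratios of each probe set to a reference, the median of that probe set on all 8 arrays, or a floor shared by all probe sets where the median is lower. Here they are given as log2 ratios, so 0 marks that reference and no gene's level can be set against another's. A probe set was tested if its ratio reached 1 on at least 2 arrays. Of the 15 probe sets, 10 met this, covering 8 genes, and the other 5 did not: the only probe set of Maf, and 1 each of Bcl6, Rora, Irf4 and Id2. Of the 10, 8 would have fallen under the filter without the day 7 arrays, against 29.6% of all 13042 probe sets tested. The counts over the 10 therefore carry no weight of their own as evidence of a rise at day 7 or of a fall from it. The same filter applied to the gene lists below. Tbx21, Prdm1 and Rora by 1420583_a_at had median ratios of 0.91, 0.71 and 0.50, so their reference is the shared floor. Likeness among their values under 0 cannot be read as likeness of level. In bulk RNA of this kind, a change in the share of a cell type and a change in RNA per cell cannot be told apart.

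Group was not the only split among the arrays. The 18 probe sets of the hybridisation controls, bacterial and phage transcripts added to each sample, had median log2 ratios of -1.70 to -1.03 on the day 7 arrays, and of -1.16 on naive replicate 1, against 0.64 to 1.41 on the other 4 arrays. Naive replicate 1 lay with the day 7 arrays on the leading principal component too, which held 43.7% of the variance. Differences within the arrays of low controls (day 7 against naive replicate 1) and within those of high controls (day 28 against naive replicates 2 and 3) are given beside the members below. What part the split had in the results was not tested beyond these values and a fit with a term for it. Because day 7 had only low controls and day 28 only high ones, that fit compares day 7 with naive replicate 1 alone. It compares day 28 with naive replicates 2 and 3. A call lost at day 7 in that fit cannot be read as an effect of the split.

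The regions before the genes' starts were searched for 5 short motifs of factors in or near this group. RefSeq (GRCm38.p6) gave windows of 250 bases before the transcription start for 7 of the 9 genes, 8 windows in all. Each motif was searched on both strands of all 32851 RefSeq windows. The E-box CACGTG, which Bhlhe40 binds, was in 6.02% of them. The GAS element of STAT factors, TTCNNNGAA, was in 7.02%. AGGTCA, bound by Rora, was in 14%. GGTGTGA, bound by T-box factors such as T-bet, was in 3.33%. The GATA site AGATAA was in 9.99%. Both Bcl6 windows held matches, and the windows of Tbx21, Gata3, Rora, Irf4, Prdm1 and Id2 held none of the 5. The Bcl6 windows are printed because they are the windows that held matches. They run 5′ to 3′ on the minus strand, with matches in capitals. The first lies at chr16:23988853-23989102 and the second at chr16:23981284-23981533.
Bcl6 upstream start: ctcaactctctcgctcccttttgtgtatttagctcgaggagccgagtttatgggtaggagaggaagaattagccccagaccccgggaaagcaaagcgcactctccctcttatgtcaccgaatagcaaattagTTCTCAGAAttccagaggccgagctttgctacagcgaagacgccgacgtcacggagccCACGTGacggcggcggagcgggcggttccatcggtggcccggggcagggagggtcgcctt
Bcl6 downstream start: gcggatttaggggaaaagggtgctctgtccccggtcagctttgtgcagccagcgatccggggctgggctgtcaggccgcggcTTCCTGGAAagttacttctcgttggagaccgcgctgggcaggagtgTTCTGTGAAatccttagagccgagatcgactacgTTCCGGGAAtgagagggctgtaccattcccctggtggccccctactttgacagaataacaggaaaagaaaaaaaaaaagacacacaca
The first window holds a GAS match, TTCTCAGAA, from 118 to 110 bases before the start and an E-box from 60 to 55 bases before it. The second holds 3 GAS matches: TTCCTGGAA from 168 to 160, TTCTGTGAA from 122 to 114 and TTCCGGGAA from 88 to 80 bases before the start. These are matches of letters and not measured binding sites.

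The first comparison asks which of these factors differed 1 week into the response. Among the lineage-defining factors, Bcl6 (gene ID 12053) by probe set 1421818_at measured 0.07, -1.68 and -1.01 (log2 ratio) in naive replicates 1, 2 and 3, and 3.10, 1.91 and 2.43 in day 7 replicates 1, 2 and 3. Every day 7 array lay above every naive array. The log2 difference was 3.35 ± 0.51 (SE, 3 arrays per group, limma adjusted p = 0.0347), and 2.41 within the arrays of low controls. The call was kept without naive replicate 1 (adjusted p = 0.00656) and lost without naive replicate 2 or 3 (0.132 each), without day 7 replicates 1, 2 or 3 (0.0903, 0.0618 and 0.169) and without either day 28 array (0.0679); the difference ran from 2.95 to 3.82. The other Bcl6 probe set, 1450381_a_at, stayed below its reference on all 8 arrays, from -0.92 to -0.38, and its day 7 difference was 0.12 ± 0.14 (not filtered, adjusted p = 0.739). The rise of Bcl6 therefore rests on 1 of its 2 probe sets.

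Tbx21 (gene ID 57765, 1449361_at), the Th1 factor, measured -0.21, -0.08 and -0.79 (log2 ratio, replicates in order) in naive mice, against 0.26, 3.10 and 2.41 at day 7. The groups did not overlap, but day 7 replicate 1 lay close to the naive arrays. The log2 difference of 2.28 ± 0.69 did not pass (limma adjusted p = 0.179), whereas without day 7 replicate 1 it was 3.11 and passed (adjusted p = 0.0306). Within the arrays of low controls it was 2.13. Gata3 (gene ID 14462, 1448886_at), the Th2 factor, measured 0.15, -1.03 and -0.29 (log2 ratio) in naive mice, against 1.77, -0.36 and 0.69 at day 7. Here the groups overlapped, with day 7 replicate 2 below naive replicates 1 and 3. The difference of 1.09 ± 0.57 did not pass (limma adjusted p = 0.395), and within the arrays of low controls it was 0.55.

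Rora (gene ID 19883), a nuclear receptor of the Th17 programme that is also known from innate lymphoid cells, was measured by 3 probe sets. By 1424034_at the naive replicates measured -0.93, -1.27 and -1.38 (log2 ratio) and those of day 7 measured 2.10, 1.59 and 1.20. The groups were well apart, and the difference was 2.82 ± 0.38 (limma adjusted p = 0.0202), or 2.56 within the arrays of low controls. The call was lost without naive replicate 2 (adjusted p = 0.111), naive replicate 3 (0.0953) and day 7 replicates 1, 2 and 3 (0.0559, 0.0698 and 0.0788). By 1420583_a_at the 3 naive arrays lay together at -1.0, -1.02 and -1.06 and the day 7 arrays spread from -0.41 to 0.93, a difference of 1.28 ± 0.36 that did not pass (adjusted p = 0.166) and was 1.25 within the arrays of low controls. The third, 1424035_at, was not tested and ran from -0.46 to 0.13 over the 8 arrays, with a day 7 difference of -0.03. Over the 8 arrays the first and second correlated at r = 0.84, and the third at -0.17 and -0.46 with them, as a description.

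Maf (gene ID 17132) had a single probe set, 1447945_at, which was not tested. Its log2 ratios ran from -0.66 to -0.39 over all 8 arrays, below its reference everywhere, and the day 7 difference without a filter was 0.02 ± 0.11. Nothing on its level in any group can be read from this probe set.

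Bhlhe40 (gene ID 20893, 1418025_at), a basic helix-loop-helix repressor that restrains Il10 in effector T cells, was the member with the smallest p at day 7, at rank 17 of the 13042 probe sets. It measured -1.45, -1.44 and -0.59 (log2 ratio) in naive mice, against 2.23, 2.67 and 2.59 at day 7. The day 7 arrays lay close together and far above the naive arrays, naive replicate 1 included. The difference was 3.66 ± 0.36 (SE, limma adjusted p = 0.00737) and 3.94 within the arrays of low controls. It was called in 6 of 8 fits that left out an array, and not without naive replicate 2 (adjusted p = 0.0546) or day 7 replicate 3 (0.0572).

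Irf4 (gene ID 16364, 1421173_at), an interferon regulatory factor induced by antigen receptor signals, measured 0.60, -1.35 and -1.78 (log2 ratio) in naive mice, against 1.32, -0.13 and 0.17 at day 7. Naive replicate 1 lay above day 7 replicates 2 and 3, and the difference of 1.30 ± 0.66 did not pass (limma adjusted p = 0.384). Without naive replicate 1 it was 2.02 and passed (adjusted p = 0.0338). Within the arrays of low controls it was -0.14, with the opposite sign. Its other probe set, 1421174_at, was not tested and ran from -0.90 to -0.54. Prdm1 (gene ID 12142, 1420425_at), the Bcl6 antagonist, measured -0.27, -0.70 and -0.78 (log2 ratio) in naive mice, against -0.50, 1.10 and 0.35 at day 7. Day 7 replicate 1 lay among the naive arrays, and the difference of 0.90 ± 0.43 did not pass (limma adjusted p = 0.362) and was 0.58 within the arrays of low controls.

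Id2 (gene ID 15902), an inhibitor of E proteins known from effector T cells and innate lymphoid cells, had 2 tested probe sets that ordered the immunized arrays differently. By 1422537_a_at the naive replicates measured -0.75, -1.25 and -0.63 (log2 ratio) and those of day 7 measured 2.98, 0.93 and 0.26. By 1435176_a_at they had -0.39, -0.90 and -0.15, and 0.01, 1.64 and 1.33. Day 7 replicate 1 was the highest of its group in the first and the lowest in the second, and in both the day 7 arrays lay above the naive arrays. The differences of 2.27 ± 0.78 (limma adjusted p = 0.227) and 1.47 ± 0.50 (adjusted p = 0.223) did not pass, and were 2.14 and 1.38 within the arrays of low controls. As the mean over both probe sets, Id2 rose by 1.87 ± 0.33 (adjusted p = 0.0356 over all 7825 genes), and this call was lost without any one array other than naive replicate 1, at adjusted p from 0.0588 to 0.148. The third probe set, 1453596_at, was not tested and had a difference of 0.54 without a filter. The probe sets of Id2 correlated at r = 0.24 to 0.50 over the 8 arrays.

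**Figure D1:**
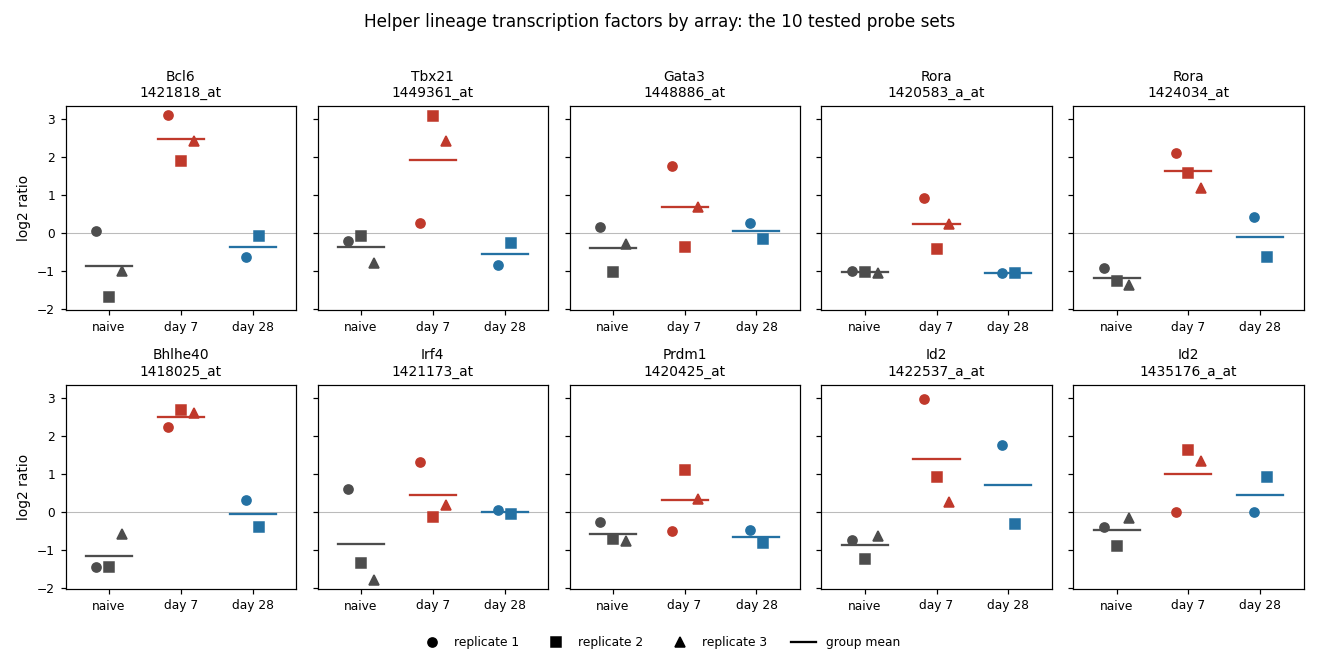
Log2 ratio of each array (points, shaped by replicate) in naive, day 7 and day 28 mice for the 10 tested probe sets of 8 helper lineage factors, with the group mean as a line; 0 is the reference of that probe set. Bhlhe40 at day 7 sits between 2.23 and 2.67, above all other arrays, while Tbx21, Prdm1 and Id2 spread widely at day 7.

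In counts, 3 of the 10 tested member probe sets rose at day 7 and 0 fell, where 1.17% of all 13042 probe sets were called, and 1.06% called higher. At an unadjusted p under 0.05 it was 7 of the 10, all higher, against 15.5% of all probe sets in either direction. As genes, each as the mean over its tested probe sets, 4 of 8 rose (Bhlhe40, Bcl6, Rora and Id2), where 1.75% of 7825 genes were called. Without naive replicate 1 the counts were 4 probe sets and 5 genes. They were 0 probe sets and 1 gene without naive replicate 2, and likewise without day 7 replicate 3. Without naive replicate 3 they were 1 probe set and 1 gene, without day 7 replicate 2 they were 1 and 2, and without day 7 replicate 1 they were 2 and 2. The fit with a term for the controls has naive replicate 1 alone to set against day 7, so its counts are not given here. The day 7 arrays lay above all naive arrays in 7 of the 10, against 13.4% of all probe sets. The median log2 difference was 1.87 over the 10 and 0.11 over all probe sets tested.

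**Figure D2:**
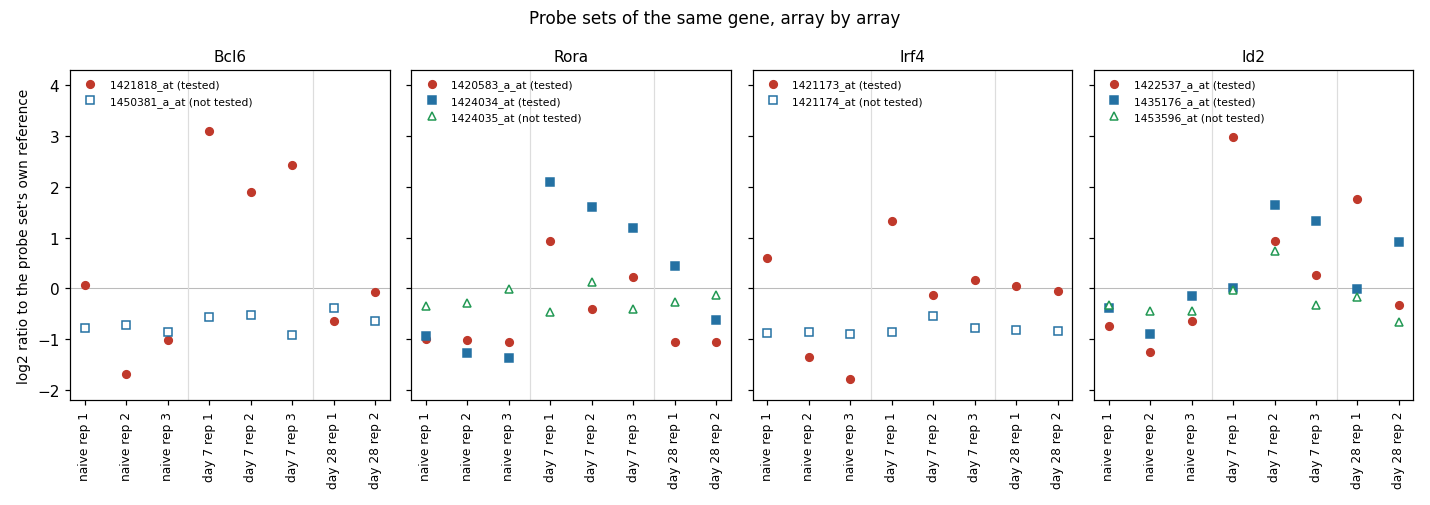
Log2 ratio on each of the 8 arrays for every probe set of the 4 members that have more than 1; filled symbols were tested and open symbols were not. The open symbols stay between -0.92 and 0.74 on all arrays, and the filled symbols of Id2 order the day 7 and day 28 arrays differently.

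The second comparison asks which of these factors differed from naive 4 weeks after immunization. Of the 10 tested probe sets 0 passed in limma (2 at an unadjusted p under 0.05, where 6.34% of all probe sets had one), and 0.322% of all probe sets were called. As genes 0 of 8 passed in limma (2 at an unadjusted p under 0.05), and 0.524% of all genes were called. Bhlhe40 had log2 ratios of 0.32 and -0.41 on day 28 replicates 1 and 2, above all naive arrays and below all day 7 arrays. Its difference from naive was 1.11 ± 0.40 (limma adjusted p = 0.653). Rora by 1424034_at had 0.43 and -0.62, also above naive and below day 7, with a difference of 1.10 ± 0.43 (adjusted p = 0.713). By 1420583_a_at its day 28 values of -1.05 and -1.06 lay among the naive arrays, all of them under the shared floor, so no level can be read from them. Both Id2 probe sets lay above all naive arrays, at 1.75 and -0.32 by 1422537_a_at and at -0.01 and 0.92 by 1435176_a_at. The difference of Id2 as a gene was 1.26 ± 0.37 (adjusted p = 0.427). Bcl6 by 1421818_at had -0.64 and -0.07, inside the naive range, with a difference of 0.52 ± 0.58 (adjusted p = 0.998).

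Tbx21 at day 28 had log2 ratios of -0.85 and -0.26 (difference from naive -0.20 ± 0.77), Gata3 0.27 and -0.17 (0.44 ± 0.63), and Prdm1 -0.48 and -0.83 (-0.07 ± 0.48). Irf4 had 0.05 and -0.05 (0.84 ± 0.74), with naive replicate 1 above both. These 4 overlapped with the naive arrays. For Tbx21 and Prdm1 the naive and day 28 values were all under the shared floor, so no likeness of level can be read from them. Day 28 lay above naive without overlap in 4 of the 10 member probe sets, against 7.76% of all probe sets. Within the arrays of high controls, day 28 differed from naive replicates 2 and 3 by 1.56 for Irf4, 0.99 for Bcl6 and 0.71 for Gata3, each over 1.5 times the difference from all naive arrays. There it was 0.97 for Bhlhe40, 1.23 and -0.01 for Rora (1424034_at and 1420583_a_at), and 1.66 and 0.98 for Id2 (1422537_a_at and 1435176_a_at). For Tbx21 it was -0.12 and for Prdm1 0.09.

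Marker genes of B cells, which also express Bcl6, Irf4 and Id2, were high at day 28. Of 8 tested B cell markers 8 rose at day 28 against naive and 0 fell, where 0.524% of all genes were called. Blnk, and Cd8b1 of the CD8 chains, lay below 0 on every naive and day 7 array. They met the filter only through the day 28 arrays. The counts of both lists therefore carry no weight of their own as evidence of a rise at day 28. The B cell list median (log2 ratio) was 4.31 and 3.46 on the day 28 arrays. It was between -0.56 and 0.00 on the other 6. At day 7 against naive 0 of the 8 passed in limma. Cd22 alone had an unadjusted p under 0.05 (2.82 ± 0.56 in log2, adjusted p = 0.0546). The adaptor gene Blnk rose by 4.87 ± 0.30 in log2 (limma adjusted p = 0.00175) and Cd79b, a chain of the B cell receptor, by 6.09 ± 0.42 (adjusted p = 0.0020); Ms4a1, Cd22, Cr2 and Ly6d rose by 3.37 to 5.86. Of these, 3 passed when day 28 replicate 1 or naive replicate 3 was left out, 4 when naive replicate 2 was, and 5 when day 7 replicate 3 was. Both CD8 chains also rose, Cd8b1 by 3.70 ± 0.34 (limma adjusted p = 0.00492) and Cd8a by 3.65 ± 0.54 (adjusted p = 0.0347), with 1 of the 2 passing when naive replicate 2 or 3, any day 7 array or day 28 replicate 1 was left out. Of 7 tested genes that act with Prdm1, Irf4 and Bcl6 in B lineage cells, 2 rose at day 28 against naive: Irf8, a factor of B and dendritic cells, by 2.30 ± 0.33 (adjusted p = 0.0277), and Spib, an Ets factor of B cells, by 2.78 ± 0.40 (adjusted p = 0.0282). Neither passed without naive replicate 3, any day 7 array or day 28 replicate 1, and 1 passed without naive replicate 2 or day 28 replicate 2. The part of B cells in the day 28 values of Bcl6, Irf4, Prdm1 and Id2 was not tested.

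Of 9 tested T cell markers 0 passed at day 7 or day 28 against naive in limma (1, Thy1, and 0 at an unadjusted p under 0.05), with list medians from -0.65 to 0.80 over the arrays; 1 fell at day 7 without naive replicate 1. Of 3 tested plasma cell markers 0 passed at day 7 in limma (2 at an unadjusted p under 0.05, and 1 rose without naive replicate 1). Xbp1, a secretory factor downstream of Blimp-1, lay 1.43 ± 0.37 higher in log2 (adjusted p = 0.111) and Jchain, which joins secreted antibodies, 2.31 ± 0.72 higher (adjusted p = 0.162), whereas Sdc1, the plasma cell surface proteoglycan, differed by -0.41 ± 0.38 (adjusted p = 0.595). The plasma cell list median was 0.99, 0.18 and 0.34 at day 7 and -1.18 to -0.20 on the naive arrays, and the part of such cells in the day 7 values of Irf4 and Prdm1 was not tested. Nkg7, a granule protein of NK and effector T cells, rose by 4.05 ± 0.46 at day 7 (adjusted p = 0.00695) and 3.26 ± 0.51 at day 28 (adjusted p = 0.0446), where Id2 also lay above naive, and the other NK and innate lymphoid gene tested, Kit, did not pass. The day 28 call of Nkg7 was lost without naive replicate 2 or 3, day 7 replicate 1 or 3, or either day 28 array. Of 4 tested monocyte and macrophage markers, 2 germinal centre B cell markers and 1 dendritic cell marker, 0 passed in any comparison in limma, and at an unadjusted p under 0.05 it was Lyz2 alone, higher at day 28 by 4.23 ± 0.82 against naive and 3.51 ± 0.82 against day 7, and 1 monocyte marker rose in both without day 28 replicate 2.

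**Figure D3:**
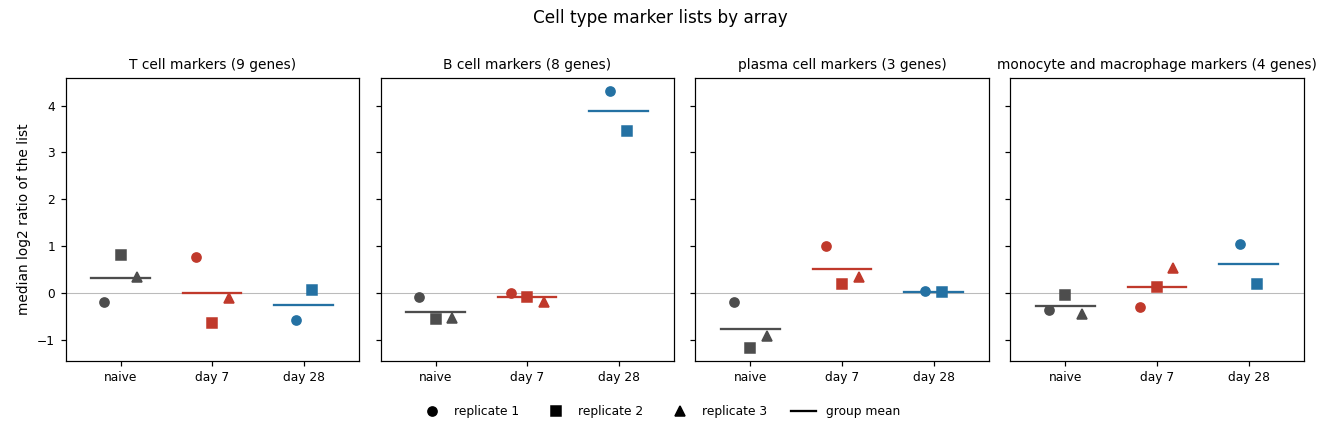
Median log2 ratio of 4 cell type marker lists on each array (points, shaped by replicate), with the group mean as a line. B cell markers sit at 4.31 and 3.46 at day 28 and near or below 0 elsewhere; plasma cell markers are above 0 on the 3 day 7 arrays.

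The third comparison asks how day 28 differed from day 7. It shares arrays with the other comparisons and is not independent of them. The day 7 arrays had low controls and the day 28 arrays high ones, so day and control split cannot be told apart in it. No difference within 1 set of controls can be given here. Of the 10 tested member probe sets 1 fell and 0 rose, where 1.3% of all probe sets were called and 0.882% called lower. At an unadjusted p under 0.05 it was 5 of the 10, against 16.5%. As genes 1 of 8 fell, where 1.71% of all genes were called. Because 8 of the 10 met the filter only through the day 7 arrays, these counts carry no weight of their own as evidence of a fall. Bhlhe40 fell by 2.54 ± 0.40 on the log2 scale (SE, 2 arrays against 3, limma adjusted p = 0.0348). This call was kept without naive replicate 1 or 3 and lost without any other array, at adjusted p from 0.0614 to 0.161, the differences running from -2.90 to -2.18. Bcl6 differed by -2.83 ± 0.58 (adjusted p = 0.0648) and passed without naive replicate 1 (adjusted p = 0.0218). Tbx21 had -2.48 ± 0.77 (adjusted p = 0.174) and passed without day 7 replicate 1, at -3.31 (adjusted p = 0.0334). The Rora probe sets 1424034_at and 1420583_a_at had -1.72 ± 0.43 (adjusted p = 0.111) and -1.30 ± 0.41 (adjusted p = 0.175). In these 5 probe sets both day 28 arrays lay below all day 7 arrays, which held for 29.7% of all probe sets.

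Gata3 (-0.65 ± 0.63), Irf4 (-0.46 ± 0.74), Prdm1 (-0.97 ± 0.48) and Id2 (-0.68 ± 0.87 and -0.54 ± 0.55) overlapped between day 28 and day 7, and limma adjusted p ran from 0.371 to 0.785. All 10 member differences were below 0, as were most probe sets on the array, of which 41.9% lay above 0. For Bhlhe40 and Rora (1424034_at) the order was naive, day 28 and day 7, and neighbouring groups did not overlap. Only the steps from naive to day 7 and, for Bhlhe40, from day 28 to day 7 passed. The day 28 place of Rora rests on arrays at 0.43 and -0.62. Its other probe sets did not share the order: 1420583_a_at differed from naive by -0.02 at day 28, and 1424035_at by -0.03 at day 7. For Bcl6 (1421818_at) and Tbx21 every day 7 array lay above every naive and day 28 array. Of these steps only that of Bcl6 from naive to day 7 passed. Naive and day 28 overlapped in both genes. The naive and day 28 values of Tbx21 were all under the shared floor, so they cannot be read as alike in level.

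**Figure D4:**
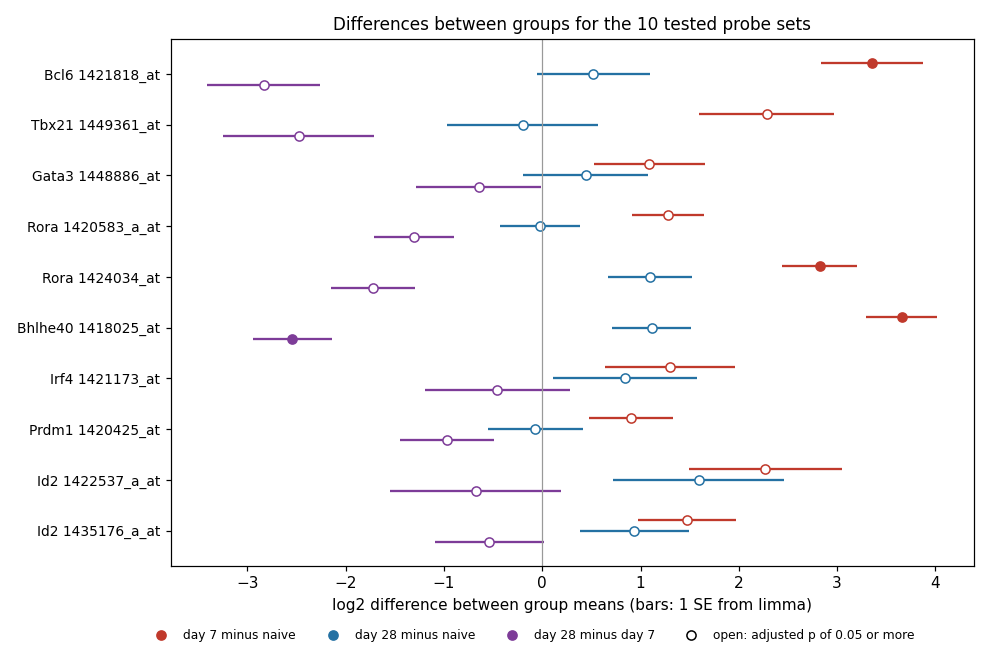
Log2 differences between group means with 1 SE from limma for the 10 tested probe sets, in 3 comparisons by colour; filled symbols passed at an adjusted p under 0.05. Bhlhe40, Bcl6 and 1 probe set of Rora passed at day 7 against naive, Bhlhe40 at day 28 against day 7, and 0 at day 28 against naive.

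Genes known to act with each factor were read from lists of partners, receptors and cytokines, each gene as the mean of its tested probe sets. Some of them met the filter only through the day 7 arrays: Il21, Ascl2 and Il4 lay below 0 on every naive and day 28 array. The counts and medians of these lists therefore carry no weight of their own as evidence of a rise at day 7. Over all 7825 genes, 1.75% were called at day 7 against naive. For Bcl6, 6 of 15 tested follicular helper genes rose at day 7 and 0 fell, with a median log2 difference of 1.87 against 0.12 over all genes. Il21, the cytokine that supports germinal centre B cells, rose by 3.95 ± 0.44 (limma adjusted p = 0.00695), and Cxcr5, the receptor that leads cells into follicles, by 4.35 ± 0.74 (adjusted p = 0.0333). The inhibitory receptor Pdcd1 rose by 4.29 ± 0.65 (adjusted p = 0.0225) and the costimulatory receptor Icos by 3.28 ± 0.57 (adjusted p = 0.0353). Ascl2, a helix-loop-helix factor that induces Cxcr5, rose by 2.54 ± 0.48 (adjusted p = 0.0439) and the coactivator Pou2af1 by 2.77 ± 0.44 (adjusted p = 0.0258). Of the 15, Lef1 (-3.11 ± 0.73, limma adjusted p = 0.0897) and Il6ra (-0.82 ± 0.47, adjusted p = 0.414) lay lower at day 7 and did not pass. Leaving out naive replicate 1 gave 9 that rose and 1 that fell. Leaving out naive replicate 2, naive replicate 3 or day 7 replicate 3 gave 1 that rose, day 7 replicate 1 gave 2, and either day 28 array gave 3. The fit with a term for the controls is not counted, as it sets day 7 against 1 naive array. From day 7 to day 28, 1 of the 15 fell, Il21 (-3.94 ± 0.49, adjusted p = 0.0118), which did not pass without either day 28 array. Against naive, 0 passed at day 28 in limma (3 were higher and 1 lower at an unadjusted p under 0.05). The 3 were Cxcr5 (3.92 ± 0.83, adjusted p = 0.172), Pou2af1 (2.37 ± 0.49, adjusted p = 0.155) and Pdcd1 (2.01 ± 0.72, adjusted p = 0.62). Lef1 was the lower gene (-3.25 ± 0.82, adjusted p = 0.292). From day 7 to day 28 Cxcr5 and Pou2af1 differed by -0.43 and -0.40. B cell markers were high at day 28, and their part in these values was not tested.

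For Tbx21, 1 of 9 tested Th1 genes rose at day 7, Cxcr3, a chemokine receptor that T-bet is known to induce (4.74 ± 0.38, limma adjusted p = 0.00159), and it fell from day 7 to day 28 (-3.25 ± 0.43, adjusted p = 0.0133), the latter not without day 7 replicate 3 or either day 28 array. At day 7 the list had 3 that rose without naive replicate 1 and 2 without day 7 replicate 2. Ifng, the main Th1 cytokine, had log2 ratios of 2.70, 6.30 and 3.07 at day 7 and between -0.69 and 0.03 on the naive arrays; its difference of 4.37 ± 0.85 did not pass (adjusted p = 0.0511). The median of the 9 was 1.66, and 1.75% of all genes were called at day 7. For Gata3, 1 of 7 tested Th2 genes rose at day 7 and fell by day 28, Il4, the signature cytokine, which follicular helper cells also make (4.16 ± 0.66, adjusted p = 0.0258, then -3.85 ± 0.74, adjusted p = 0.0499). Both calls of Il4 were lost without naive replicate 2, naive replicate 3, day 7 replicate 3 or either day 28 array. The median of the 7 was 0.76.

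For Rora, 3 of 8 tested genes of the Th17 programme rose at day 7: Tnfsf11, which encodes RANKL (2.62 ± 0.31, limma adjusted p = 0.00874), the aryl hydrocarbon receptor Ahr (1.83 ± 0.33, adjusted p = 0.0403) and the chemokine receptor Ccr6 (2.99 ± 0.55, adjusted p = 0.0405). None of the 3 is confined to Th17 cells; B cells also carry Ccr6, which was higher still at day 28 (4.36 ± 0.62 against naive, adjusted p = 0.0277; not passed without naive replicate 2 or 3, day 7 replicate 2 or 3, or either day 28 array). Il17a, the cytokine that names the lineage, lay between -0.22 and -0.08 at day 7 and between -0.24 and 1.12 on the naive arrays. The number that rose was 0 without naive replicate 2 or day 7 replicate 3, and 4 without naive replicate 1. It was 2 without day 7 replicate 1, and 1 in each fit without another array. Of all genes, 1.75% were called at day 7 with all arrays.

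**Figure D5:**
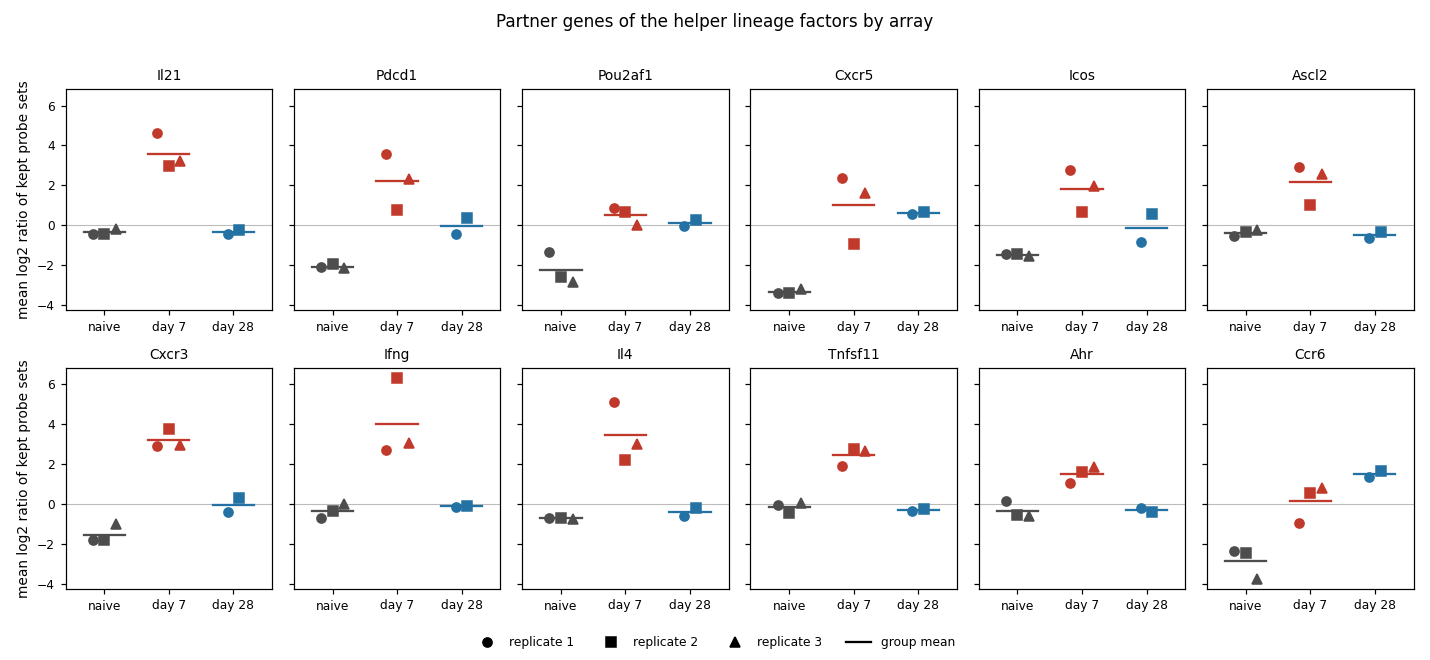
Mean log2 ratio on each array (points, shaped by replicate; line, group mean) of the 11 partner genes of Bcl6, Tbx21, Gata3 and Rora that rose at day 7, and of Ifng. Il21, Il4 and Tnfsf11 are near or below 0 on all naive and day 28 arrays, and Ccr6 is highest at day 28.

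Of 24 other regulators of T cell fate tested, 0 passed in any comparison in limma (at day 7 against naive, 6 were higher and 3 lower at an unadjusted p under 0.05). Some of the 24, such as Lef1, Batf and Stat4, are also in the lists above. Without naive replicate 1, 5 rose and 2 fell at day 7. The smallest adjusted p at day 7 were those of Nfatc1, a factor downstream of the antigen receptor (2.34 ± 0.52, adjusted p = 0.0772), and Egr2, an early growth response factor (2.34 ± 0.52, adjusted p = 0.0777). Of 4 tested partners and relatives of Id2, 0 passed in limma (1 was higher at day 7 at an unadjusted p under 0.05), and 2 rose at day 7 without naive replicate 1: Id3, a close relative, differed by 1.49 ± 0.34 at day 7 (adjusted p = 0.0852) and -1.87 ± 0.38 from day 7 to day 28 (adjusted p = 0.0612), and the E protein gene Tcf12 0.84 ± 0.47 at day 7 (adjusted p = 0.404).

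The genes whose profile over the 8 arrays was most like each member's were named from 4651 genes with an SD of at least 0.5, by Pearson correlation, as a description. The arrays share the control split above, and with 8 arrays many genes reach high values. Bhlhe40 was most like Cxcr3 (r = 0.98), the calcium-binding protein gene S100a6 (0.98) and Zfp93 (0.97). Bcl6 was most like Rpe, Ndufb5 and Cdc25b, a phosphatase of the cell cycle (0.98 each), and Rora most like Sostdc1 (0.98), Txndc17 (0.97) and Cd44, the hyaluronan receptor, known to be high on activated T cells (0.97). Tbx21 was most like Mt1, Plk4 and Krt6b (0.98 each), and Prdm1 most like Mcm10 (0.98), Plk4 (0.97) and Lif (0.97), so that Tbx21 and Prdm1 shared Plk4, a kinase of centriole duplication. Gata3 was most like Cd52 (0.97), Bccip (0.96) and Aggf1 (0.96), Irf4 most like Dennd4c (0.98), Slc41a1 (0.97) and Taok3 (0.97), and Id2 most like the inflammatory caspase gene Casp1 (0.96), Cst7 (0.96) and Fhl2 (0.94).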

How the data were processed

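RNA was measured on 8 Affymetrix arrays. The deposited values are linear ratios per probe set; GCRMA is named in the submitters' processing notes, without a version, and the scaling was inferred: 47.9% of probe sets had a median of 1 (within 0.0015), and the highest median was 1. Values were taken to log2 and fitted with limma 3.58.1 in R 4.3.3, with 1 mean per group over all 8 arrays and no replicate block. Two-sided p-values were adjusted by Benjamini-Hochberg over the 13042 probe sets kept, or over 7825 genes as means of their kept probe sets; the threshold was an adjusted p under 0.05. The test was checked on simulated data with independent noise and no control split, which cannot show its error rate on these arrays. Probe sets were named from the array annotation, and 9 of 9 members matched RefSeq. All probe sets of the members are reported; of each gene list, up to 6 genes that passed were named, or else the 2 of smallest adjusted p, of which some at day 28 are left out for length. Ifng, Il17a, Batf, Lef1, Il6ra and marker genes named beyond this, and the sequence motifs, were chosen after values were seen. Alternatives were other filters, normalizations, variance models, pseudocount, samples and terms, and leaving out each array. The members and lists were chosen with earlier results of these data known. The number of arrays limits the precision.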

Additional observations from a re-analysis of the deposited data

Results flagged for a closer look

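Bhlhe40 (1418025_at) differed between the immunized time points: its log2 difference of day 28 minus day 7 was -2.54 (limma adjusted p = 0.0348), with both day 28 arrays below all 3 day 7 arrays, and its difference from naive was 3.66 at day 7 and 1.11 at day 28. The day 7 and day 28 arrays also differed in their controls, so day and control split cannot be told apart in the difference between them.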

How the results depend on the processing

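The 3 groups have 2 or 3 arrays each, and the number of calls depended on single arrays. At day 7 against naive, 152 probe sets were called, and 94 with no filter, 76 with the stricter filter, 54 with trended and robust variance, 68 with only the 2 groups compared and 14 with the term for the controls; leaving out an array gave 17 to 1727. At day 28 against naive, 42 were called, and 26 with the stricter filter, 19 with trended and robust variance and 0 with only the 2 groups compared; leaving out an array gave 2 to 57. At day 28 against day 7, 170 were called, and 62, 52 and 591 under these settings in turn and 0 with the term for the controls (1402 at an unadjusted p under 0.05); leaving out an array gave 25 to 810. With a replicate block the 3 counts were 16, 9 and 15. The term for the controls leaves naive replicate 1 alone to set against day 7. Calls lost with it in the comparisons that hold day 7 cannot be read as an effect of the split. No label pairs the arrays, and the deviations of same-numbered arrays correlated between -0.36 and 0.17. Of the member probe sets, 3 were called at day 7 against naive, and 0 with a replicate block (9 at an unadjusted p under 0.05) or the control term (4); leaving out an array gave 0 to 4. As genes, 4 were called, and 1 with a replicate block, the control term or trended and robust variance, and 1 to 5 without an array. For day 28 against day 7, 1 member probe set was called, and 0 with no filter, the stricter filter, quantile normalization, trended and robust variance, a replicate block or the control term (1 to 5 at an unadjusted p under 0.05), and 2 with only the 2 groups compared; leaving out an array gave 0 to 2. As genes, 1 was called, 2 with quantile normalization, median centring or only the 2 groups compared, 0 with trended and robust variance, a replicate block or the control term, and 0 to 2 without an array. The gene-level alternatives were chosen after seeing the data. Signs turned only for member differences that had not passed. With the control term they were -0.14 for Irf4 at day 7 against naive, 0.0868 for Prdm1 at day 28 against naive, and 0.16 for Gata3 and 1.71 for Irf4 at day 28 against day 7. At day 28 against naive, Rora 1420583_a_at had 0.0007 with median centring and 0.54 as a gene mean, Tbx21 -0.49 to 0.10 without 1 array, and Prdm1 -0.24 to 0.10. At day 28 against day 7, Id2 1422537_a_at had -1.71 to 0.36 without 1 array, above 0 without day 7 replicate 1 or day 28 replicate 2. The causes were not tested.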

Other observations

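The 3 day 7 arrays differed in which factors were high, given here as values with no test. Day 7 replicate 1 had the highest log2 ratios of its group for Bcl6 (3.10), Gata3 (1.77), Rora (2.10 by 1424034_at) and Irf4 (1.32), and the lowest for Tbx21 (0.26), Prdm1 (-0.50) and Bhlhe40 (2.23). Day 7 replicate 2 had the highest for Tbx21 (3.10), Prdm1 (1.10) and Bhlhe40 (2.67), and the lowest for Bcl6 (1.91), Gata3 (-0.36) and Irf4 (-0.13). Among the partner genes, replicate 1 was highest for Cxcr5 (2.38 against -0.91 on replicate 2), Icos (2.76 against 0.67), Pdcd1 (3.60 against 0.76), Il4 (5.13 against 2.21) and Batf (3.29 against -0.46), with a list median of the follicular helper genes of 2.30 on replicate 1 and 0.34 on replicate 2. The Th1 genes did not share 1 order: replicate 2 was higher than replicate 1 for Ifng (6.30 against 2.70), Il18r1 (3.06 against 1.33) and Cxcr3 (3.76 against 2.93), and lower for Stat4 (-0.03 against 2.94), Il12rb1 (-0.50 against 0.61) and Il18rap (-0.72 against 0.55), and the list median was 0.61 on replicate 1 and 0.15 on replicate 2. Day 7 replicate 3 lay between them for Bcl6, Gata3, Irf4, Tbx21, Prdm1, Bhlhe40, Cxcr5, Icos, Pdcd1, Il4, Batf and Ifng. T cell markers as a list were also highest on replicate 1 (median 0.75) and lowest on replicate 2 (-0.65), and their part in this order was not tested.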
